A study of Mus musculus with 4 samples.

Results

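The genes described here encode collagen, laminin and linker components of the basement membrane, and they are *Col4a1*, *Col4a2*, *Col4a5*, *Lama4*, *Lama5*, *Lamb1*, *Lamc1*, *Nid1*, *Nid2* and *Hspg2*. They were taken by gene symbol from the table of expression values of PDGFRα reporter+ and reporter− periosteal cells, and all 10 were found among the 45802 symbols listed. All 10 were also among the 14415 genes that had a value in each of the 4 libraries and were therefore tested. The values are on a log2 scale, so that a difference of 1 is a doubling of the linear value.

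Total RNA was sequenced from 2 libraries of PDGFRα reporter+ and 2 libraries of PDGFRα reporter− cells of the mouse periosteum, the sheet of connective tissue on the outer face of bone. All libraries came from male Pdgfrα-CreERTM;mT/mG mice, labelled as 2 months or 9 to 10 weeks old. The mice had been given 150 mg/kg of tamoxifen daily over 5 days. Femurs and tibias were digested 14 days after the last dose, the cells of 3 to 6 mice, by the sample labels, were pooled for each cell population, and the pools were grown for 1 passage in medium holding bFGF, a fibroblast growth factor, at 10 ng/mL. Cells without CD31, CD45 and Ter119 were then sorted into reporter+ cells, which carried membrane GFP, and reporter− cells, which carried membrane tdTomato. In these mice the *Pdgfra* promoter drives a Cre that acts only under tamoxifen, so the reporter records *Pdgfra* promoter activity at the time of tamoxifen and not at the time of sorting. The methods of the study give a larger number of pooled mice than the labels. Both populations had been pooled and cultured, and neither is a direct sample of the tissue. The table heads its columns with a population and a number, 2 or 3, and the libraries are called here by both, as in reporter+ library 2.

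A basement membrane is a thin sheet of extracellular matrix that lies under epithelium and endothelium and surrounds muscle fibers, fat cells, mural cells and the Schwann cells of nerves. Laminins, which are trimers of an alpha, a beta and a gamma chain, bind to cell surface receptors and form a first network, and collagen IV forms another that is held by covalent bonds. Nidogens and the heparan sulfate proteoglycan perlecan connect these networks. Fibroblasts do not rest on a basement membrane as epithelium does, but mesenchymal cells are known to make many of its components, and in bone the basement membranes lie mainly around blood vessels, nerves and fat cells.

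The collagen IV genes lie in the genome as pairs that start close together and are read in opposite directions. *Col4a1* (chr8:11198423-11312826, minus strand) and *Col4a2* (chr8:11312805-11449287, plus strand) start so close that their annotated transcripts overlap by 22 bases. *Col4a5* (chrX:141475385-141689234, plus strand) starts 1343 bases from *Col4a6*, as placed by the RefSeq start sites. Because the values of *Col4a1* and *Col4a2* are set beside each other below, the reference sequence around the start of each of these 4 genes is given, from 250 bases before to 50 bases after the start site, 5′ to 3′ on the strand of the gene. The windows are from RefSeq on GRCm38.p6 and lie at chr8:11312777-11313076 (minus strand) for *Col4a1*, chr8:11312555-11312854 (plus strand) for *Col4a2*, chrX:141475169-141475468 (plus strand) for *Col4a5* and chrX:141474027-141474326 (minus strand) for *Col4a6*. Capitals mark matches, on either strand, to the CCAAT motif, to the GC box with the letters GGGCGG, and to the TATA box with the letters TATAAA. No match overlaps another in these windows.
Col4a1: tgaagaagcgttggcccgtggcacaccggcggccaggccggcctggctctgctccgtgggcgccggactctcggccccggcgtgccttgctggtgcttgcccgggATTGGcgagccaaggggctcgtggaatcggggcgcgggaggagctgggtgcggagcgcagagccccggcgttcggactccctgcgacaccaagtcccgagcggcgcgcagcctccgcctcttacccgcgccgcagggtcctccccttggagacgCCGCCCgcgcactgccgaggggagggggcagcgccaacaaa
Col4a2: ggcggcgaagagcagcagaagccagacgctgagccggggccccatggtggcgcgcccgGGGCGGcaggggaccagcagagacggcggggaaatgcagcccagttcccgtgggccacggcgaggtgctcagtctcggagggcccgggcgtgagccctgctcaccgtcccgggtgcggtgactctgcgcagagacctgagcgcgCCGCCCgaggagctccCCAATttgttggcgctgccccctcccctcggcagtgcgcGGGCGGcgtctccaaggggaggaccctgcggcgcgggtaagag
Col4a5: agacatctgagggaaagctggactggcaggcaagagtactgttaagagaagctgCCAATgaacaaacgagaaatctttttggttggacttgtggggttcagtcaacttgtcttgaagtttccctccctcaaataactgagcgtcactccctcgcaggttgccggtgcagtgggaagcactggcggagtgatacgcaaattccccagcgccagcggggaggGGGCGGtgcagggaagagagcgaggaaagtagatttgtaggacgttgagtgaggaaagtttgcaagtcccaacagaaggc
Col4a6: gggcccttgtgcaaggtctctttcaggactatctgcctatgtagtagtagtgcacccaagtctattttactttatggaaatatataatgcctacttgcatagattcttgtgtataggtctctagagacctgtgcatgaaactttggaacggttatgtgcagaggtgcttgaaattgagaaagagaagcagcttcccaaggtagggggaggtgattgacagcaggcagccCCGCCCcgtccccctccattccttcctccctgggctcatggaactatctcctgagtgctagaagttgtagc

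The windows of *Col4a1* and *Col4a2* share 78 bases of the genome, read from opposite strands. In the *Col4a2* window, CCAAT was found at position −32 from the start site and GGGCGG or its reverse complement was found 3 times. The *Col4a1* window held CCAAT on the reverse strand at position −145 and 1 GGGCGG match. This GGGCGG match, at position 10 of *Col4a1*, is the match at position 8 of *Col4a2*, read from the other strand. The *Col4a5* window held 1 match to each of these 2 motifs, and that of *Col4a6* held 1 match to GGGCGG. No TATAAA was found in these 4 windows. Among 32851 RefSeq windows of the same length, 37.4% held CCAAT, 35.7% held GGGCGG and 13.6% held TATAAA. A match is a stretch of letters and not a measured binding site. Of the 10 genes, 7 had a window, and those of *Lama5* and *Hspg2* held 4 and 5 GGGCGG matches.

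The libraries were described by a few measures of the whole table before the genes were compared. Between 15423 and 15605 genes had a value in each library, and the lowest value (−10.07), the median (1.48) and the highest value (11.73) were the same in all 4, so each value is relative to the other genes of its library. Read depth is unknown, and no counting error can be given. All 10 stromal marker genes examined had a value in every library, and their summed level was 10.64 and 10.60 in reporter+ libraries 2 and 3 and 10.68 and 10.31 in reporter− libraries 2 and 3, on the log2 scale. Single stromal genes differed more than this sum, with higher values of the proteoglycan genes *Lum* (difference 1.83) and *Dcn* (1.39) in both reporter+ libraries and a lower value of *Postn* (−1.14) in reporter+ cells at both numbers. *Pdgfra* itself had values of 7.78 and 7.62 in reporter+ libraries 2 and 3 and of 7.87 and 7.44 in reporter− libraries 2 and 3, so that the populations overlapped. Since *Pdgfra* was not deleted and GFP was not a row of the table, this is no check of the sort.

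None of the 10 genes passed the test between PDGFRα reporter+ and reporter− cells. With limma and Benjamini-Hochberg adjustment over all 14415 genes, 0 of 10 genes were called, 0 had an unadjusted p under 0.05, and the adjusted p was 1 for each of them. The background was 0 of 14415 genes called (0%), with 131 genes at an unadjusted p under 0.05. A fit that blocked on the library number called 29 of 14415 genes (0.201%), and the 10 genes were again not among them, although 5 of them and 913 of all genes had an unadjusted p under 0.05. The median difference, reporter+ minus reporter−, was −0.30 on the log2 scale over the 10 genes and −0.00 over all genes. The median over the 10 genes was 0.04 without reporter+ library 2 and 0.04 without reporter− library 3. Leaving out 1 library unbalances the numbers, so here and below such a difference also holds part of the difference between the numbers. With all 4 libraries, differences were negative for 7 genes and positive for 3. With 2 libraries against 2, an exact permutation test of a single gene cannot give a two-sided p below 0.333. The labels do not say that the libraries of a population came from separate cultures, so p-values measure only the spread between these libraries.

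**Figure D1:**
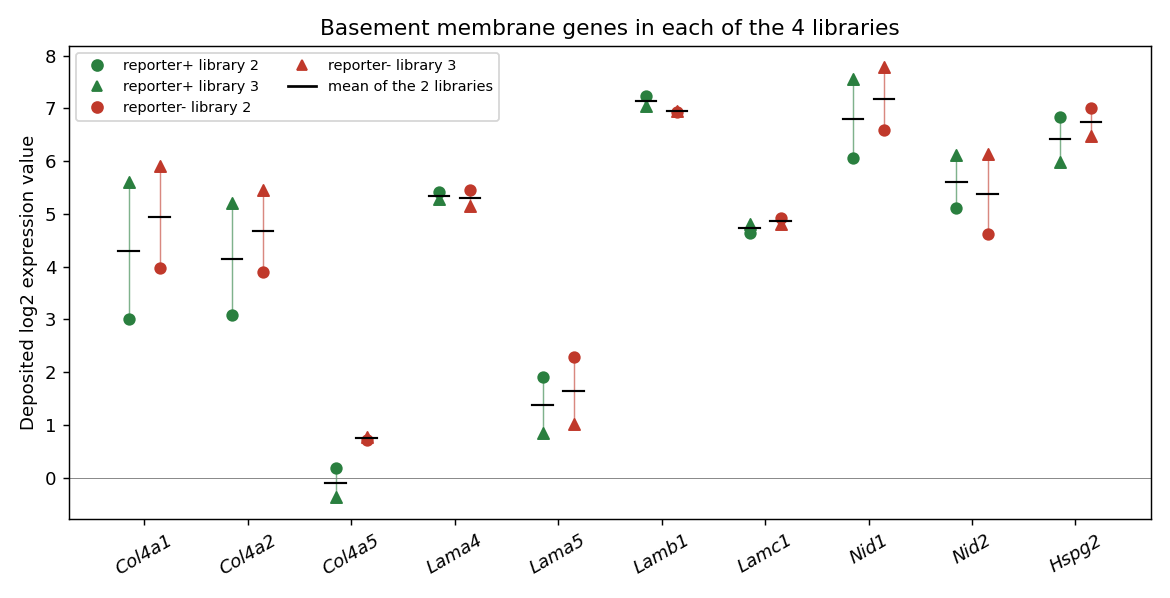
The deposited log2 value of each gene (vertical axis) is plotted for reporter+ (green) and reporter− (red) cells, with circles for library 2, triangles for library 3 and a black bar for the mean of the 2 libraries. The triangles of *Col4a1* lie at 5.60 and 5.91, above the circles at 3.00 and 3.97, whereas the 4 points of *Lamb1* lie between 6.94 and 7.23.

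Collagen IV is the network-forming collagen of the basement membrane, and the chains of *Col4a1* and *Col4a2* form the trimer found in nearly all basement membranes. *Col4a1* had log2 values of 3.00 and 5.60 in reporter+ libraries 2 and 3 and of 3.97 and 5.91 in reporter− libraries 2 and 3. *Col4a2* had values of 3.08 and 5.20 in the reporter+ libraries and of 3.90 and 5.45 in the reporter− libraries, in the same order. Both genes were low in the libraries numbered 2 and high in those numbered 3, with reporter+ below reporter− at each number, and the populations overlapped. The mean log2 value of *Col4a1* was 4.30 ± 1.84 (SD, n = 2) in reporter+ and 4.94 ± 1.37 (SD, n = 2) in reporter− cells, a difference of −0.64 (SE 1.09). For *Col4a2* the means were 4.14 ± 1.50 and 4.68 ± 1.09 (SD, n = 2 each), a difference of −0.54 (SE 0.89). Within library number 2 the difference between the populations was −0.98 for *Col4a1* and −0.83 for *Col4a2*, and within number 3 it was −0.30 and −0.25. Both differences were smaller than the gap between libraries of 1 population. When reporter+ library 2 was left out, which unbalances the numbers, the sign turned, to 0.66 for *Col4a1* and 0.52 for *Col4a2*. It also turned when reporter− library 3 was left out, to 0.33 and 0.23.

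*Col4a5* encodes a chain of the more restricted collagen IV networks, such as that of the kidney glomerulus, and had the largest difference of the 10 on the deposited scale. With a pseudocount of 1 added to the linear values, its difference of −0.46 was smaller in size than those of *Col4a1* (−0.60) and *Col4a2* (−0.50). Its log2 values were 0.17 and −0.37 in reporter+ libraries 2 and 3 and 0.71 and 0.78 in reporter− libraries 2 and 3. Both reporter+ libraries lay below both reporter− libraries, which lay close together. The means were −0.10 ± 0.38 and 0.74 ± 0.05 (SD, n = 2 each), a difference of −0.84 (SE 0.32) or 0.557 times the reporter− level, with differences of −0.54 within number 2 and −1.15 within number 3. The unadjusted limma p was 0.0512 and the adjusted p was 1. *Col4a5* was also low on the deposited scale, with its reporter+ mean at the 28.2 percentile of the genes tested, against 89.5 and 88.1 for *Col4a1* and *Col4a2*. The linear unit under the logarithm is not given in the sources used here, so these percentiles place a gene on the deposited scale only and are not a comparison of transcript numbers.

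Of the laminin chains, *Lamb1* (chr12:31265234-31329644, plus strand) encodes the beta chain and *Lamc1* (chr1:153218922-153332786, minus strand) the gamma chain shared by most laminin trimers. *Lamb1* had log2 values of 7.23 and 7.05 in reporter+ libraries 2 and 3 and of 6.94 and 6.95 in reporter− libraries 2 and 3. *Lamc1* had values of 4.64 and 4.81 in the reporter+ libraries and of 4.91 and 4.81 in the reporter− libraries. *Lamb1* was higher in both reporter+ libraries than in both reporter− libraries, which held for no other of the 10 genes. *Lamc1* was lower in both reporter+ libraries, but within number 3 by no more than a difference of −0.00439. The mean difference was 0.20 (SE 0.18) for *Lamb1* and −0.14 (SE 0.15) for *Lamc1*, so that neither was far from 0 in units of its error.

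The alpha chains give a laminin its receptor binding, and *Lama4* (chr10:38965515-39110188, plus strand) and *Lama5* (chr2:180176373-180225859, minus strand) encode those of vessel walls and of most adult basement membranes. *Lama4* had log2 values of 5.40 and 5.27 in reporter+ libraries 2 and 3 and of 5.46 and 5.15 in reporter− libraries 2 and 3. *Lama5* had values of 1.91 and 0.85 in the reporter+ libraries and of 2.28 and 1.02 in the reporter− libraries. The populations overlapped for both genes, and *Lama5* was lower in the libraries numbered 3. The difference between the populations was 0.04 (SE 0.18) for *Lama4*, with opposite signs within the numbers (−0.06 and 0.13). For *Lama5* it was −0.27 (SE 0.58), with −0.37 within number 2 and −0.17 within number 3. The sign of *Lama4* turned without reporter+ library 2 (−0.03) or reporter− library 3 (−0.12), and that of *Lama5* without reporter+ library 3 (0.26) or reporter− library 2 (0.36).

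The linkers included *Nid1* (chr13:13437551-13512269, plus strand) and *Nid2* (chr14:19751265-19811787, plus strand), which encode the nidogens that bind laminin and collagen IV. *Nid1* had log2 values of 6.05 and 7.55 in reporter+ libraries 2 and 3 and of 6.59 and 7.77 in reporter− libraries 2 and 3. *Nid2* had values of 5.11 and 6.11 in the reporter+ libraries and of 4.61 and 6.14 in the reporter− libraries. Both nidogens were higher in the libraries numbered 3, and the populations overlapped. *Nid1* differed between the populations by −0.38 (SE 0.66), with −0.54 within number 2 and −0.23 within number 3. *Nid2* differed by 0.23 (SE 0.62), with 0.49 within number 2 and −0.02 within number 3, so that its sign was not the same at the 2 numbers. The sign of *Nid1* turned without reporter+ library 2 (0.37) or reporter− library 3 (0.21), and that of *Nid2* without reporter+ library 3 (−0.27) or reporter− library 2 (−0.53). *Nid2* shares 437 bases with a gene on the opposite strand that had a value, listed as *2700060E02Rik*, and *Col4a1* shares 22 with *Col4a2*. Opposite-strand genes without a value overlap *Col4a1* (6081 bases), *Col4a2* (18707), *Col4a5* (300), *Lamc1* (1047) and *Nid1* (8063). The libraries were stranded, but whether strand was used in counting is not given in the sources used here.

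*Hspg2* (chr4:137468769-137570630, plus strand) encodes the core protein of perlecan. Its log2 values were 6.84 and 5.98 in reporter+ libraries 2 and 3 and 7.01 and 6.47 in reporter− libraries 2 and 3. The reporter+ value was the lower at each number, and the populations overlapped. The means were 6.41 ± 0.61 and 6.74 ± 0.38 (SD, n = 2 each), a difference of −0.33 (SE 0.37), with −0.17 within number 2 and −0.49 within number 3. Without reporter+ library 3 the difference was 0.10.

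**Figure D2:**
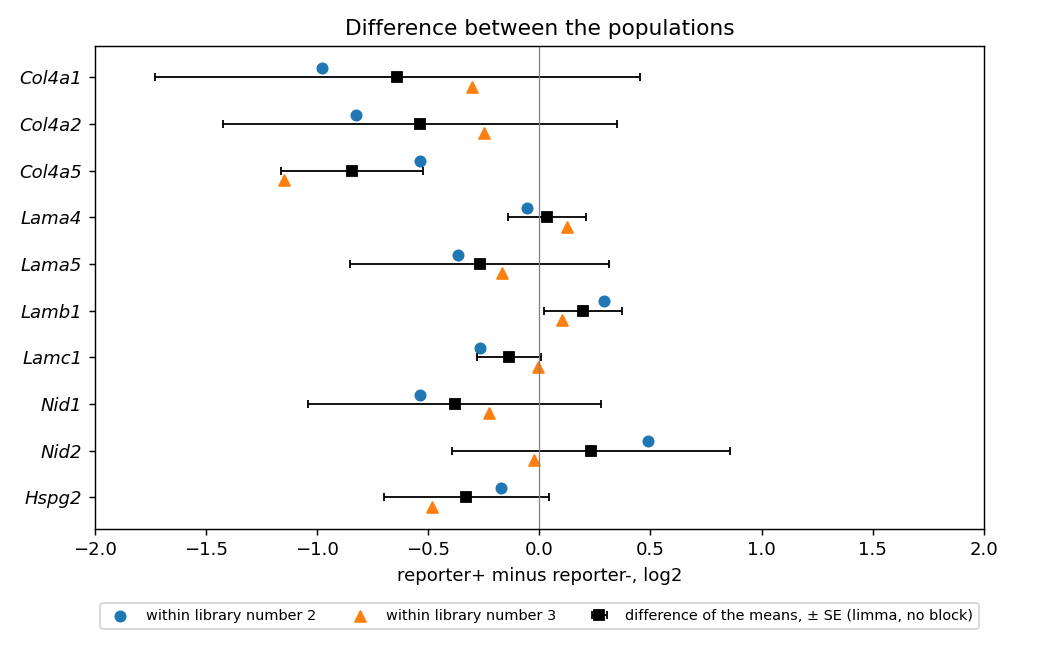
The difference reporter+ minus reporter− on the log2 scale (horizontal axis) is plotted for each gene, as the difference of the means with its SE from limma (black squares and bars) and within library number 2 (blue circles) and 3 (orange triangles). *Col4a5* has the most negative difference of the means (−0.84), and *Lama4* and *Nid2* are the genes whose 2 numbers lie on different sides of 0.

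Counted by direction, the reporter+ libraries were both below the reporter− libraries for 2 of the 10 genes, *Col4a5* and *Lamc1*, where 8.1% of all genes tested had this order. They were both above for 1 of the 10, *Lamb1*, where the background was 7.59%. Within the library numbers, 7 of the 10 genes were lower in reporter+ cells at both numbers, namely *Col4a1*, *Col4a2*, *Col4a5*, *Lama5*, *Lamc1*, *Nid1* and *Hspg2*, where the background was 24.8%. *Lamb1* was higher at both numbers, as were 22.1% of all genes, and *Lama4* and *Nid2* differed in sign. These genes were measured in the same 4 libraries and are not independent of each other, so the count of 7 carries no p. The absolute difference between the populations had a median of 0.299 over the 10 genes and 0.119 over all genes. The larger gap between libraries of 1 population had a median of 1.06 over the 10 genes and 0.479 over all genes, and it exceeded the difference between the populations for 8 of the 10, the exceptions being *Col4a5* and *Lamb1*.

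Marker genes of cell types that make or rest on basement membranes were compared in the same way. Of 10 endothelial markers, 8 were tested and 7 of these had lower means in reporter+ cells. The summed log2 level of the panel was 1.99 and 1.77 in reporter+ and 2.38 and 2.72 in reporter− libraries 2 and 3. That sum rested mainly on *Egfl7* (1.22 and 1.00 against 1.01 and 1.29), *Erg* and *Tek*, each with overlap. Without overlap 4 of the 8 were lower in reporter+ cells (8.1% of all genes), and *Vwf* had the higher mean there (0.09). *Pecam1*, which encodes the CD31 used to exclude cells in the sort, had values of −4.68 and −4.79 in the reporter+ and −1.99 and −1.11 in the reporter− libraries, *Tie1* had no value in reporter+ library 3 and *Cldn5* none in reporter+ library 2. Mural and smooth muscle markers were lower in reporter+ cells for 7 of 10, with summed levels of 4.40 and 5.03 against 5.34 and 5.55. Smooth muscle myosin (*Myh11*) had values of −2.87 and −3.29 against −0.80 and −0.57. Without overlap 3 of 10 mural markers were lower and 2 higher in reporter+ cells (8.1% and 7.59% of all genes), the latter being the pericyte channel genes *Kcnj8* (0.05 and 0.29 against −0.35 and −1.18) and *Abcc9* (0.67 and 0.86 against 0.46 and 0.18). Of the Schwann cell markers, 6 of the 7 tested were lower, with summed levels of 1.94 and 0.62 against 2.23 and 1.55, and *Sox10* and *Foxd3* had no value in either reporter+ library. Skeletal muscle markers were lower for 4 of the 5 tested, with summed levels of 0.47 and 0.20 against 1.84 and 0.73, and *Myf5* and *Pax7* had no value in any library. Of 8 epithelial markers 1 was tested, *Krt19*, with values of −2.92 and −2.94 against −2.71 and −0.72, lower without overlap. *Epcam*, *Krt5* and *Krt18* had a value in reporter− library 3 only, *Krt8* in reporter+ library 2 only, and *Cdh1* in all but reporter− library 3. *Krt14* and *Cldn4* had none. Of 4 adipocyte markers tested, 3 had lower means in reporter+ cells, with overlap for each, and their levels are given below. Macrophage markers were higher in reporter+ cells for 10 of 10, with summed levels of 7.86 and 8.11 against 6.54 and 7.47. *Ptprc*, which encodes the CD45 that was also used to exclude cells in the sort, had values of −1.28 and −0.39 against −2.30 and −1.22, with overlap. None of these marker genes was called by limma without a block, although 2 stromal, 4 endothelial, 1 mural, 2 skeletal muscle and 2 macrophage markers had an unadjusted p under 0.05, as had 131 of all 14415 genes. With the block, which called 0.201% of all genes, 1 macrophage marker (*Tyrobp*, adjusted p = 0.0437 by limma) and 1 stromal marker (*Lum*, adjusted p = 0.0121 by limma) were called, both named here after their values were seen. The part of these cell types in the values of the basement membrane genes was not tested, and in bulk RNA fewer cells of a type and less RNA per cell cannot be told apart.

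The genes were then compared between the library numbers. The difference between the numbers was larger in size than that between the populations except for *Col4a5*, *Lamb1* and *Lamc1*. With population and number as terms in limma, 6 of the 10 genes differed between numbers 3 and 2 at an adjusted p under 0.05. *Col4a1*, *Col4a2*, *Nid1* and *Nid2* were higher in number 3 (4 of 10, where 11.5% of all genes were called higher), and *Lama5* and *Hspg2* were lower (2 of 10, where 9.79% were called lower). What the number stands for is not given in the sources used here, and the fit rests on 2 libraries at each number. When limma was run without its variance trend, 0 of 14415 genes were called, 3909 had an unadjusted p under 0.05, and the smallest adjusted p of the 10 genes was 0.0624.

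*Col4a1* was 2.27 higher on the log2 scale in number 3 than in number 2 (SE 0.16, adjusted p = 4.84e-05 by limma), a 4.82-fold difference, with 2.61 within reporter+ and 1.93 within reporter− cells. *Col4a2* was 1.83 higher (SE 0.15, adjusted p = 9.24e-05 by limma), a 3.56-fold difference, with 2.12 within reporter+ and 1.54 within reporter− cells. In both populations the collagen IV pair was thus high in library 3. *Nid1* was 1.34 higher (SE 0.14, adjusted p = 0.000315 by limma) and *Nid2* 1.26 higher (SE 0.14, adjusted p = 0.00052 by limma), or 2.54-fold and 2.40-fold. *Lama5* differed by −1.16 (SE 0.17, adjusted p = 0.00184 by limma) and *Hspg2* by −0.70 (SE 0.13, adjusted p = 0.00684 by limma), so that number 3 had 0.447 and 0.615 times the level of number 2. The same sign was found within either population for each of these 6 genes. *Col4a5* (−0.24), *Lama4* (−0.22), *Lamb1* (−0.08) and *Lamc1* (0.03) did not pass, with adjusted p from 0.220 to 0.891 by limma. Over all genes, both libraries of number 3 lay above both of number 2 for 36.4% and below them for 28.8%.

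**Figure D3:**
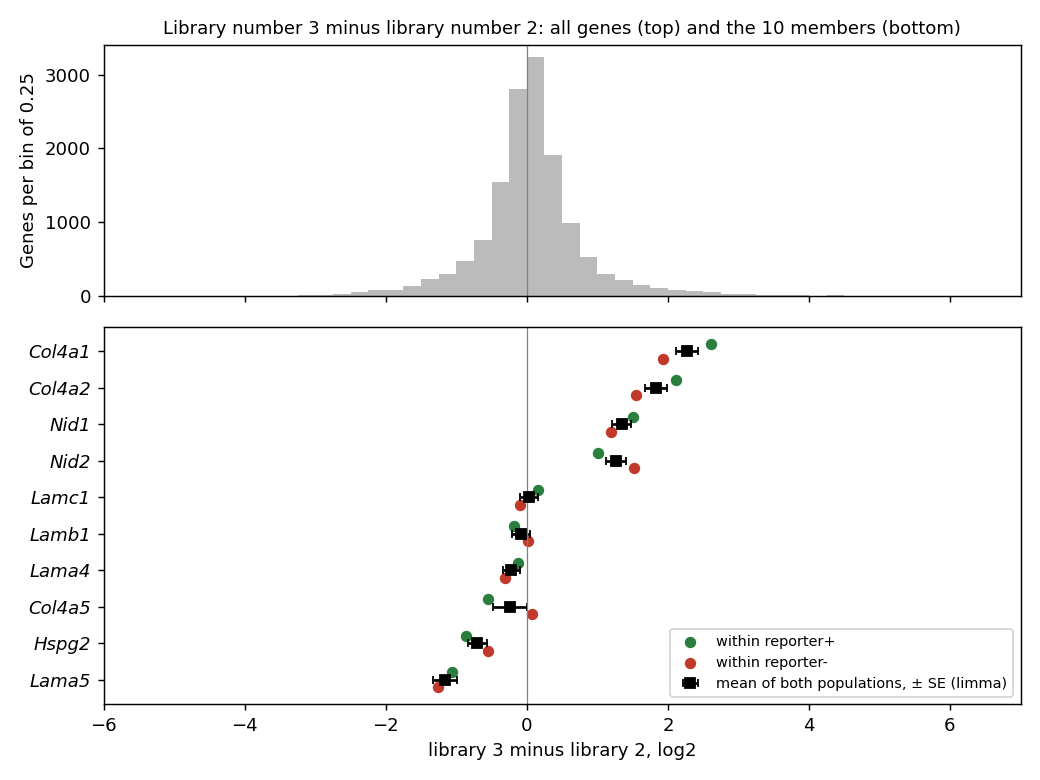
The upper panel is a histogram of the log2 difference library 3 minus library 2 over the 14415 genes tested (genes per bin), and the lower panel plots it on the same axis for the 10 genes within reporter+ (green), within reporter− (red) and as the mean of both with its SE from limma (black). *Col4a1* lies farthest to the right at 2.27 and *Lama5* farthest to the left at −1.16, while *Lamc1*, *Lamb1*, *Lama4* and *Col4a5* lie near 0.

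Adipocyte markers moved with the library number in the direction of *Col4a1*. Of 10 such genes 4 were tested, and all 4 were called higher in number 3, by a median of 3.41 on the log2 scale. Their summed log2 level was 3.05 and 7.22 in reporter+ libraries 2 and 3 and 2.75 and 8.26 in reporter− libraries 2 and 3. Lipoprotein lipase (*Lpl*) had values of 1.03 and 6.57 in the reporter+ and 0.96 and 6.66 in the reporter− libraries. Adiponectin (*Adipoq*) had no value in reporter+ library 2, 2.74 in reporter+ library 3, −5.69 in reporter− library 2 and 5.20 in reporter− library 3, and the lipid droplet gene *Plin1* had no value in either library numbered 2. *Lep* had no value in any library. Of the other panels, 6 of 10 macrophage, 3 of 10 mural, 1 stromal and 1 endothelial marker were called higher in number 3, and 3 stromal, 1 mural, 1 endothelial and 1 Schwann cell marker were called lower, beside 11.5% and 9.79% of all genes. Fat cells are surrounded by a basement membrane, and the part of these cells in the difference between the numbers was not tested.

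The members of a complex were then set against each other within each library, as the log2 value of 1 gene minus that of another, a difference whose change across libraries does not depend on the lengths of the genes. *Col4a1* minus *Col4a2* was −0.08 and 0.41 in reporter+ libraries 2 and 3 and 0.07 and 0.46 in reporter− libraries 2 and 3, a range of 0.54 although each gene ranged over more than 2 on this scale. *Lamb1* minus *Lamc1* ranged over 0.56, and it was 2.59 and 2.24 in the reporter+ and 2.02 and 2.14 in the reporter− libraries. The laminin pair therefore stood farther apart in reporter+ cells at each library number. *Nid1* minus *Nid2* was 0.94 and 1.44 in the reporter+ and 1.97 and 1.64 in the reporter− libraries, so that *Nid1* exceeded *Nid2* by less in both reporter+ libraries. Other pairs ranged over 3.15 (*Col4a1* minus *Col4a5*), 2.36 (*Hspg2* minus *Nid1*), 1.56 (*Nid1* minus *Lamc1*), 1.24 (*Lama4* minus *Lama5*) and 0.42 (*Lama4* minus *Lamc1*), the last being the narrowest of the 8 pairs. *Hspg2* minus *Nid1* was 0.79 and −1.56 in the reporter+ and 0.43 and −1.31 in the reporter− libraries. These are descriptions over 4 libraries and carry no test.

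Genes with the most similar pattern were sought for 3 of the 10, by the distance between values centered on the mean of the gene over the 4 libraries, among 7207 other genes with a mean at or above the median. For *Col4a1* the nearest was *Heg1* (distance 0.204), *Col4a2* was at rank 2 (0.452) and *Prl2c2*, *Hic1* and *Fads2* followed. For *Lamc1* the nearest were *Tsc22d2*, *Apc*, *Sec24b*, *Tulp3* and *Tmem63b* (0.0405 to 0.0583), while its partner chain *Lamb1* was at rank 4441 (0.420). For *Nid1* the nearest were *F3*, *Pear1*, *Sfrp1*, *Sik1* and *Efemp1* (0.119 to 0.175), and *Nid2* was at rank 228 (0.745). By distance the laminin partners were slightly closer than the collagen IV partners, and a rank also depends on how many genes share a pattern. With 4 libraries many genes share a pattern, and nothing about shared function was drawn from it.

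The remaining genes of the basement membrane were examined in 6 lists by role, and none was called by limma between the populations without a block. Other collagen IV chains were *Col4a3*, with no value in any library, *Col4a4* and *Col4a6*, and both of the 2 tested had a negative difference (median −1.17). *Col4a6*, the neighbor of *Col4a5*, had low values of −5.27 and −5.57 in reporter+ libraries 2 and 3 and of −5.13 and −3.35 in reporter− libraries 2 and 3. Both reporter+ libraries were the lower, as for *Col4a5*, but the difference of −1.18 (SE 0.85) rested mainly on reporter− library 3. Of the 7 other laminin chains, all 7 had negative differences (median −0.56), and 6 were lower within both numbers (24.8% of all genes). *Lama2*, the alpha chain of muscle and Schwann cell basement membranes, had values of 0.28 and 0.10 in the reporter+ and of 0.59 and 0.63 in the reporter− libraries, without overlap. All genes together had a median difference of −0.00.

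Among 22 other components of basement membranes, 21 were tested, with 14 negative and 7 positive differences (median −0.10). The populations did not overlap for 6 of them, 4 lower and 2 higher in reporter+ cells, where the shares of all genes were 8.1% and 7.59%. *Ntn4*, a netrin that binds laminin, had values of −0.07 and 0.68 in the reporter+ and of 1.16 and 0.73 in the reporter− libraries, and *Npnt*, the integrin ligand nephronectin, had −0.04 and 0.63 against 0.82 and 0.77. Both were the lower in each reporter+ library, by a mean difference of −0.64 (SE 0.38) and −0.50 (SE 0.33). *Hmcn2*, with low values of −5.53 and −5.42 against −4.42 and −5.26, was also lower in both reporter+ libraries (−0.63, SE 0.68). Its difference within number 3 was −0.16. The matricellular gene *Smoc2* was higher in both reporter+ libraries (0.31, SE 0.18). *Col15a1*, which encodes a collagen at the interface of basement membrane and fibrillar matrix, had values of −1.54 and 2.65 against −0.52 and 3.84. It had the largest difference of this list (−1.11, SE 2.03) and was 4.28 higher in number 3 than in number 2 (adjusted p = 4.81e-06 by limma), the direction of *Col4a1* and *Nid1*. In this list 6 genes were called higher and 4 lower in number 3, where the shares of all genes were 11.5% and 9.79%.

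Receptors for these components, such as integrins, dystroglycan and discoidin receptors, had 12 negative and 4 positive differences among 16 genes (median −0.19). The collagen receptor *Ddr2* had values of 6.04 and 6.13 in reporter+ libraries 2 and 3 and of 6.30 and 6.21 in reporter− libraries 2 and 3, and it was the 1 of 16 receptors without overlap (−0.17, SE 0.15), where 8.1% of all genes were lower without overlap. *Itgb4*, the beta chain of the integrin of epithelial hemidesmosomes, had −0.37 and −4.11 against 0.15 and −2.66. It followed the number more than the population, with a difference of −3.28 between numbers 3 and 2 (adjusted p = 0.000605 by limma), and 7 of the 16 receptors were called lower in number 3 against 1 called higher (9.79% and 11.5% of all genes).

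The genes for assembly and secretion of collagen IV and those for degradation had positive medians. Of 17 assembly genes, which encode hydroxylases, chaperones and secretion factors also used for other collagens, 13 had positive differences (median 0.11) and 9 were higher within both numbers (22.1% of all genes). The prolyl hydroxylase subunit *P4ha1* had values of 5.42 and 5.82 in the reporter+ and of 5.34 and 5.37 in the reporter− libraries, and its partner *P4hb* had 8.22 and 8.39 against 8.21 and 8.15. Both were higher in both reporter+ libraries, with differences of 0.26 (SE 0.19) and 0.12 (SE 0.22). *P3h2*, a prolyl hydroxylase that acts on collagen IV, had the largest difference (0.84, SE 0.58). Its values of −0.16 and 0.40 against −1.41 and −0.04 overlapped. The secretion factor *Mia2* had low values of −6.22 and −5.15 against −5.09 and −5.12. It was lower in both reporter+ libraries (−0.58, SE 0.73), with a difference of −0.02 within number 3. In every list but that for degradation, no gene had an unadjusted p under 0.05.

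Of 14 genes for degradation and its inhibition, 12 were tested and 7 had positive differences (median 0.16), while *Mmp7* and *Plg* had no value in any library. The gelatinase *Mmp9* had values of 3.21 and 3.89 in reporter+ libraries 2 and 3 and of 2.18 and 1.41 in reporter− libraries 2 and 3. *Mmp12*, the macrophage metalloelastase, had −0.81 and −0.31 against −3.19 and −1.73. Both were higher in both reporter+ libraries, by 1.75 (SE 0.37) and 1.90 (SE 0.64), with unadjusted limma p of 0.00719 and 0.0365 and an adjusted p of 1. The inhibitor *Timp1* was also higher in both (0.29, SE 0.24). The stromelysin *Mmp3* had values of 6.73 and 10.49 against 4.82 and 8.37, a difference of 2.01 (SE 1.74), and it overlapped because number 3 was 3.65 above number 2 (adjusted p = 3.27e-06 by limma). With the library number as a block, *Mmp3* was called (adjusted p = 0.00341 by limma), and it was the only gene of the 6 lists that was. Of the 10 macrophage markers given above, 6 were, like *Mmp9* and *Mmp12*, higher in both reporter+ libraries, where 7.59% of all genes were. The sort had excluded cells with CD45, and the part of macrophages in these values was not tested.

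**Figure D4:**
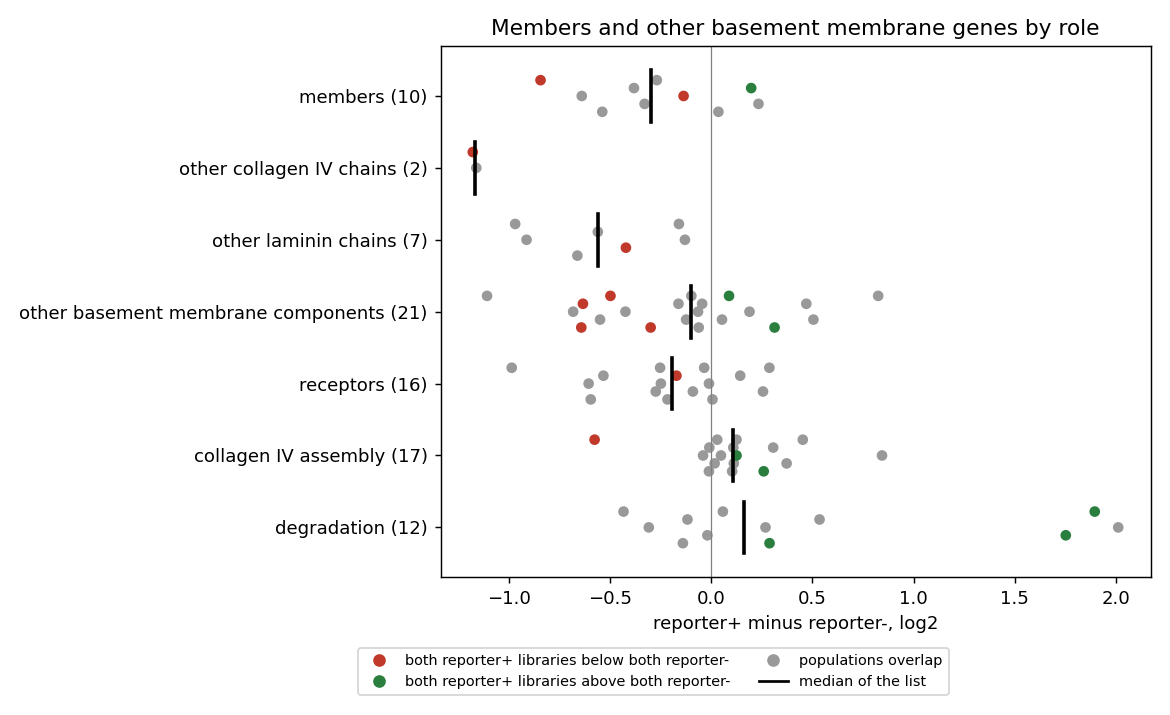
The difference reporter+ minus reporter− on the log2 scale (horizontal axis) is plotted for every tested gene of the 10 members and the 6 lists by role (rows, with the number tested), colored red or green where both reporter+ libraries lie below or above both reporter− libraries, gray where they overlap, with a black line at the median. The medians run from −1.17 for the other collagen IV chains to 0.16 for degradation, and the points farthest to the right are *Mmp9*, *Mmp12* and *Mmp3* at 1.75, 1.90 and 2.01.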

How the data were processed

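Total RNA of 2 PDGFRα reporter+ and 2 reporter− libraries was prepared by stranded paired-end protocols and sequenced on an Illumina instrument. The submitters' processing notes name bcl2fastq 2.17.1.14, Partek 7.0 and GRCm38.p6. The aligner, counting, annotation and linear unit are not given in the sources used here. The authors deposited log2 values, 1 per symbol and library, with a blank where there was none, and the 4 libraries had the same quartiles within 0.001. Columns numbered 2 and 3 were matched to a population only, since the samples are labelled replicates 1 and 2.

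The test of differences between means used limma 3.58.1 (R 4.3.3, trended variance, two-sided, no block), over 14415 genes with a value in every library, with Benjamini-Hochberg adjustment at 0.05. Numbers 3 and 2 were compared with population as a term. The code was tested on simulated data. Genes named from the lists are those without overlap, up to 4 by difference, and the largest difference, and 1 gene so chosen is not reported here. Members and lists were chosen with earlier results of these data known. Positions are from GENCODE M21. Alternatives were a replicate block, a pseudocount of 1, a minimum mean of 0, no trend, and each library left out.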

Additional observations from a re-analysis of the deposited data

How the results depend on the processing

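With the library number as a replicate block, 0 of the 10 genes were called (smallest adjusted p 0.263 by limma) and 1 gene of the lists, *Mmp3*, was called against 0 without it. The sources do not say that libraries of a number share a preparation. The deviations of same-numbered libraries from their population means had a correlation of 0.681 across genes. With 2 libraries in each population, numbers 2 and 3 give the same correlation by construction, so this is 1 value. Counted within each number, as in that paired comparison, 7 genes were lower in reporter+ cells against 2 without overlap. With 1 library left out, which also unbalances the numbers, 4 to 6 genes were lower in every reporter+ library and 1 to 2 higher against 1, while over all genes 25.8% to 32.5% were lower and 25.7% to 30.6% higher. The difference then ran from −1.94 to 0.66 for *Col4a1*, −1.60 to 0.52 for *Col4a2*, −0.12 to 0.19 for *Lama4*, −0.90 to 0.36 for *Lama5*, −1.13 to 0.37 for *Nid1*, −0.53 to 0.99 for *Nid2* and −0.76 to 0.10 for *Hspg2*. Its sign changed in 13 of 40 values for the 10 genes. Each of these values also holds part of the difference between the numbers, and no other cause was tested. *Col4a5* (−1.12 to −0.57), *Lamb1* (0.11 to 0.29) and *Lamc1* (−0.22 to −0.06) kept their sign. Without the trend, 0 genes were called higher and 0 lower in number 3, against 4 and 2. With a pseudocount of 1 the difference of *Col4a5* was −0.46 and no longer the largest. Depth is unknown, so the precision of low values such as those of *Col4a6* could not be judged.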
